A study of Mus musculus with 12 samples.

Results

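The keratins are the intermediate filament proteins of epithelial cells, and their genes were followed here in 12 libraries of mouse tumour tissue. Every gene whose symbol is Krt followed by a digit was taken, which leaves out keratin-associated proteins and other genes with a similar name, and gave 51 of the 18433 genes in the table. All 51 had counts in at least 1 library. The genes were sorted by known site of expression into 4 simple epithelial keratins (Krt7, Krt8, Krt18 and Krt19), 4 epidermal keratins (Krt1, Krt5, Krt10 and Krt14), 14 other keratins of stratified epithelia, 8 of the inner root sheath and companion layer of the hair follicle, 15 of the hair shaft and 6 left unclassified.

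The tumours were grown from 4T1, a mammary carcinoma line of the BALB/c mouse strain, by injecting the cells under the skin of the right flank of BALB/c mice. Mice bearing tumours were randomised to 4 arms of 5 mice, and 3 libraries per arm were sequenced from total RNA on the BGISEQ-500 platform. The control arm carried tumours without either agent, the DSF arm received DSF by mouth, the anti-PD-1 arm received an antibody that blocks PD-1, a checkpoint receptor of T cells, injected into the peritoneum, and the combination arm received both. The age and sex of the mice are not given in the sources used here. All arms share a single tumour line and a subcutaneous site, and each library is bulk tissue in which host skin, fat and muscle can be present beside tumour.

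A keratin filament is built from pairs of an acidic type I and a basic type II chain, and the partner chains are usually made by the same cell. Simple epithelia and most carcinomas make Krt8 with Krt18, and ducts add Krt7 and Krt19. Basal keratinocytes of the epidermis make Krt5 with Krt14 and switch to Krt1 with Krt10 as they leave the basal layer, while wounded or hyperproliferative epidermis and parts of the follicle make Krt6a, Krt6b, Krt16 and Krt17. The hair follicle has sets of its own for the inner root sheath and for the hard keratin of the shaft.

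Libraries held between 13323171 and 16809705 counts. Levels of one gene are given as CPM, counts scaled to a fixed library size after TMM normalisation, and different genes are compared by FPKM, which the authors had scaled by gene length. Of the 51 keratins, 21 passed the low-count filter, which asks for a minimum CPM in at least 3 libraries, and 30 did not. The untested genes were 22 of the 23 follicle keratins, whose counts lay almost wholly in 1 library, and 8 others, which did not pass 1.82 CPM in any library. A pair of libraries stood apart. Combination replicate 2 held hair follicle transcripts, described below, and DSF replicate 2 held adipocyte transcripts, whose list of 9 genes summed to 7219 CPM there against 56.2 to 447 CPM elsewhere. The labels do not say that libraries come from separate animals, so p-values measure the spread between these libraries.

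**Figure D1:**
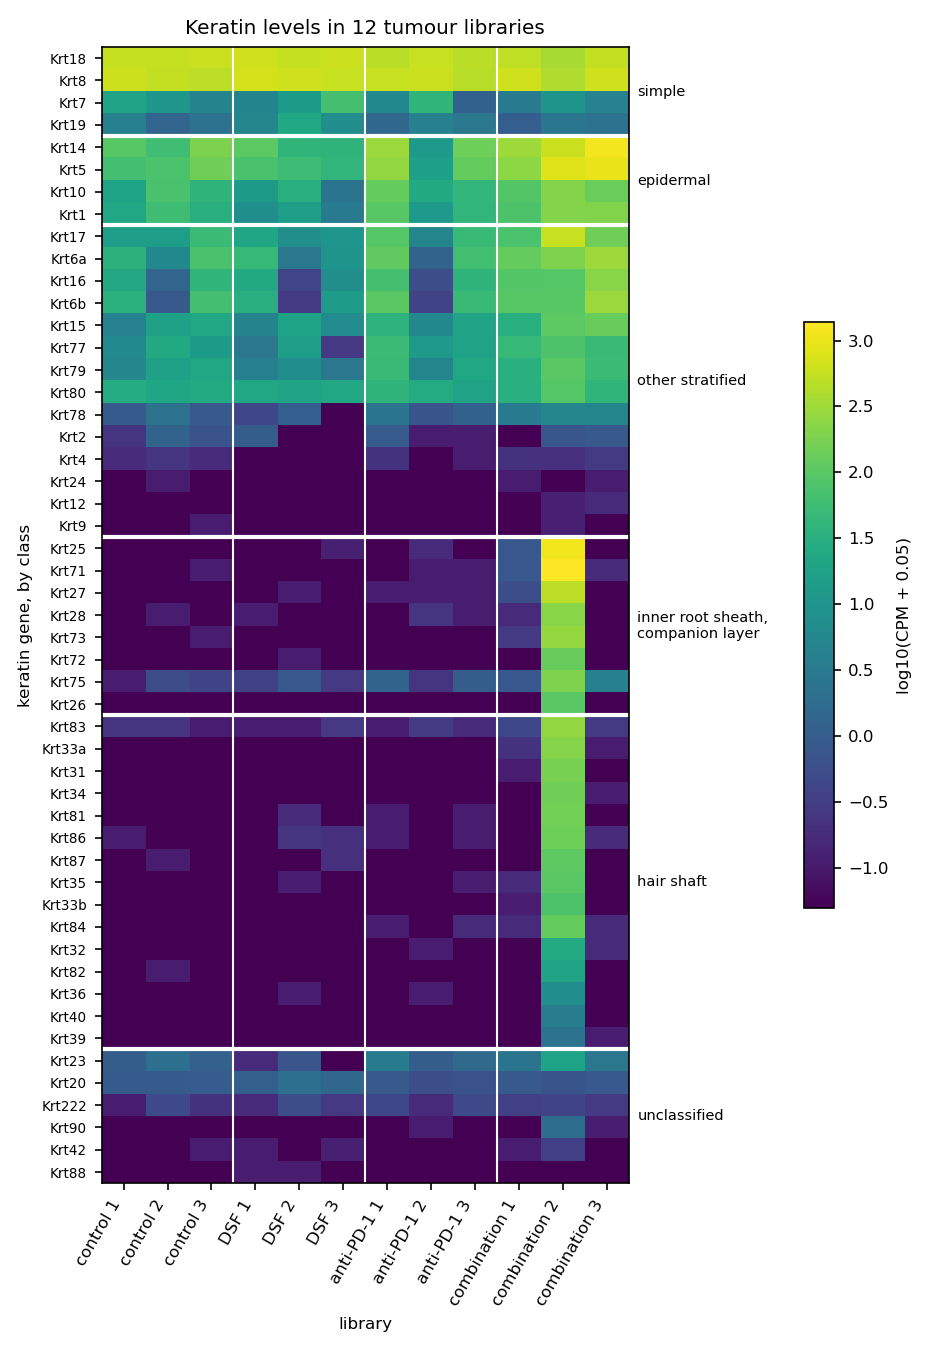
Level of each of the 51 keratins (rows, grouped by class) in the 12 libraries (columns), as log10(CPM + 0.05). Krt18 and Krt8 are high in every column, epidermal and other stratified keratins differ between columns, and the inner root sheath and hair shaft blocks are bright in combination replicate 2.

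Krt18 and Krt8, the partner chains of simple epithelia, were the keratins with the highest mean FPKM over the 12 libraries, at 450 and 360. Krt18 stood at 555, 569 and 597 CPM in control replicates 1 to 3, at 651, 561 and 598 CPM with DSF, at 480, 574 and 485 CPM with anti-PD-1 and at 518, 368 and 545 CPM with the combination. The arms overlapped, except that all 3 combination libraries lay below all 3 control and all 3 DSF libraries. Krt8 stood at 622, 529 and 500 CPM in control, at 698, 654 and 586 CPM with DSF, at 582, 606 and 450 CPM with anti-PD-1 and at 669, 401 and 660 CPM with the combination. The Krt8 values of the arms overlapped throughout, and the lowest library for both genes was combination replicate 2.

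These were the steadiest keratins of the set. The SD of log2 CPM over the libraries was 0.21 for Krt18 and 0.25 for Krt8, beside a median of 0.23 over all 14144 genes tested. The FPKM of Krt8 was 0.627 to 0.966 times that of Krt18. On log2 CPM the pair correlated with Pearson's r = 0.676 (permutation p = 0.016, adjusted p = 0.032 over the 8 relations examined, n = 12) and Spearman's rho = 0.35 (permutation p = 0.267, adjusted p = 0.427). Without combination replicate 2 and anti-PD-1 replicate 3, the libraries farthest from the median of Krt8, r was 0.00177, so the relation rests on those libraries.

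Krt7 and Krt19, which are made by ductal epithelia, were far lower, with mean FPKM of 10.9 and 4.42. Krt7 stood at 19.2, 10.5 and 4.82 CPM in control, at 5.03, 13.2 and 66.1 CPM with DSF, at 5.75, 40.2 and 1.14 CPM with anti-PD-1 and at 3.39, 10.1 and 4.65 CPM with the combination. It was high in DSF replicate 3 and anti-PD-1 replicate 2 and overlapped between all arms. Krt19 stood at 4.20, 1.36 and 2.18 CPM in control, at 5.49, 23.4 and 7.48 CPM with DSF, at 1.54, 4.29 and 2.83 CPM with anti-PD-1 and at 0.993, 2.70 and 2.2 CPM with the combination. All 3 DSF libraries lay above every library of the other arms, and the highest was DSF replicate 2. The summed mammary gland list was also highest in DSF replicate 2, at 33.2 CPM against 1.22 to 7.49 CPM elsewhere, and its part in the Krt19 value was not tested.

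**Figure D2:**
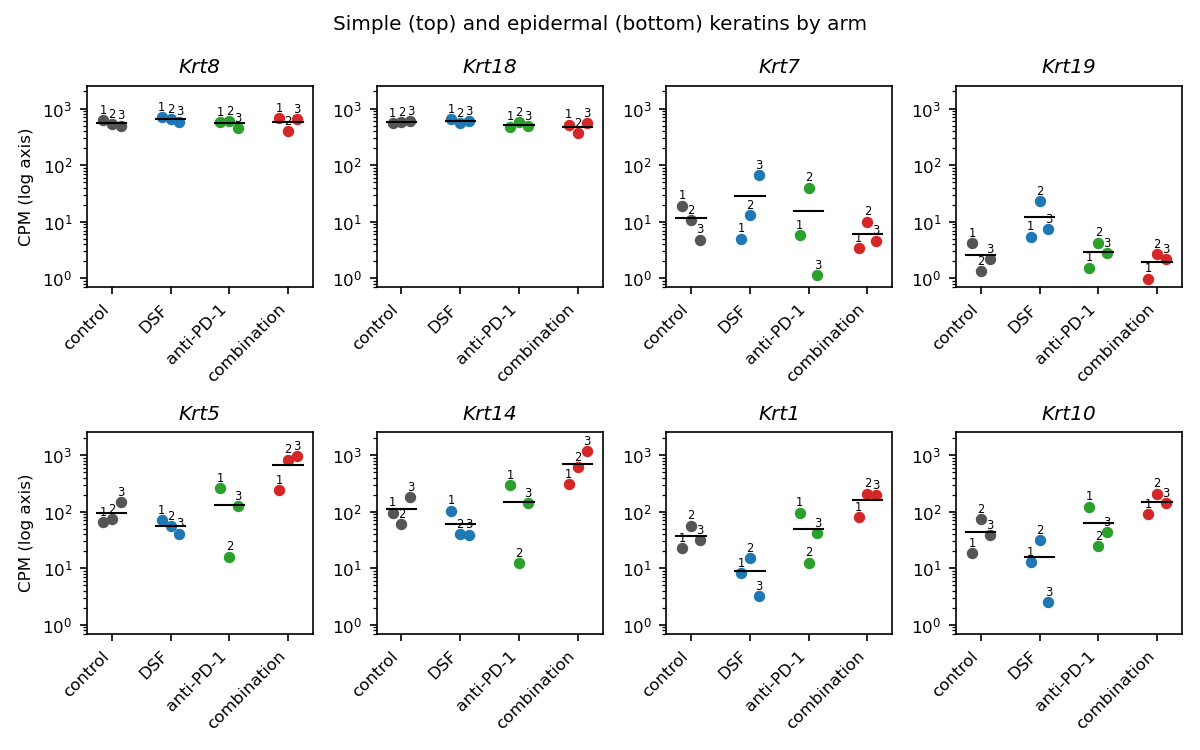
CPM of the simple (top) and epidermal (bottom) keratins in each library on a log axis, by arm. Numbers are replicates, points are single libraries and black lines are means of 3. Krt8 and Krt18 sit between 368 and 698 CPM in every arm, while Krt14 runs from 12.2 to 1161 CPM.

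The 4T1 label was set beside markers of carcinoma epithelium. Vim, the intermediate filament of mesenchymal cells, stood at 3689 to 5908 CPM, and Epcam, an epithelial adhesion protein, at 1.39 to 42.4 CPM with its highest value in combination replicate 2. The 16 carcinoma epithelium genes, which include Epcam, summed to 244 to 430 CPM in 11 libraries and to 678 CPM in combination replicate 2. Members other than Epcam therefore gave most of that sum in every library, and Epcam alone does not stand for the list. The mean of that list had a Pearson's r of -0.477 with Krt8 (permutation p = 0.116, adjusted p = 0.173, n = 12), with Spearman's rho of -0.196 (permutation p = 0.543, adjusted p = 0.621), and r of 0.102 without combination replicate 2 and anti-PD-1 replicate 3.

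The basal epidermal pair Krt14 and Krt5 varied between libraries far more than the simple pair. Krt14 stood at 96.5, 59.6 and 182 CPM in control, at 105, 40.0 and 39.2 CPM with DSF, at 295, 12.2 and 141 CPM with anti-PD-1 and at 306, 613 and 1161 CPM with the combination. All 3 combination libraries lay above the other 9, although anti-PD-1 replicate 1 came within 11 CPM of the lowest of them. Krt5 stood at 64.6, 74.8 and 148 CPM in control, at 71.8, 55.6 and 41.1 CPM with DSF, at 258, 16.0 and 125 CPM with anti-PD-1 and at 243, 833 and 964 CPM with the combination. Here anti-PD-1 replicate 1 lay above the lowest combination library. The lowest library for both was anti-PD-1 replicate 2.

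Both chains of the basal pair varied together from library to library. Their log2 CPM correlated with Pearson's r = 0.979 and Spearman's rho = 0.972 (n = 12), each with a permutation p of 1e-05, the smallest that 100000 resamples can give, and an adjusted p of 4e-05. Without combination replicates 2 and 3, r was 0.975. The libraries were permuted without regard to arm, so differences between arms are part of this relation and its p. The FPKM of Krt5 was 0.491 to 1.02 times that of Krt14. Krt8 and Krt14 showed no such relation, with Pearson's r of -0.201 (permutation p = 0.526, adjusted p = 0.526, n = 12), Spearman's rho of -0.0629 (permutation p = 0.85, adjusted p = 0.85), and r of 0.159 without combination replicate 2 and anti-PD-1 replicate 3.

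The suprabasal pair Krt10 and Krt1 also varied between libraries. The FPKM of Krt10 ran from 0.043 times that of Krt14 in DSF replicate 3 to 1.56 times in anti-PD-1 replicate 2. Krt10 stood at 18.6, 73.6 and 38.2 CPM in control, at 13, 31.8 and 2.49 CPM with DSF, at 123, 24.7 and 43.1 CPM with anti-PD-1 and at 89.5, 207 and 140 CPM with the combination. Krt1 stood at 22.7, 56.5 and 31.6 CPM in control, at 8.13, 15.1 and 3.23 CPM with DSF, at 96.5, 12.6 and 41.5 CPM with anti-PD-1 and at 79.2, 208 and 198 CPM with the combination. For Krt1 the 3 DSF libraries lay below all 3 control libraries and the 3 combination libraries above them. Krt1 and Krt10 correlated with r = 0.962 and rho = 0.979 (n = 12, permutation p = 1e-05 for each, adjusted p = 4e-05), and with r = 0.949 without DSF replicate 3 and combination replicate 2.

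Transcripts of differentiated epidermis varied with the epidermal keratins, and their part in the keratin values was not tested. The 21 genes of a list of cornified envelope and keratinocyte products, among them Lor, Flg and Ivl, summed to 107 to 188 CPM in control, 34.8 to 92.9 CPM with DSF, 88.4 to 437 CPM with anti-PD-1 and 441 to 1382 CPM with the combination. The mean of this list correlated with Krt14 with Pearson's r = 0.859 (permutation p = 0.0004, adjusted p = 0.00107, n = 12) and Spearman's rho = 0.902 (permutation p = 0.00015, adjusted p = 0.0004), and with r = 0.923 without anti-PD-1 replicate 2 and combination replicate 3. In bulk tissue, fewer keratinocytes and less keratin RNA per keratinocyte cannot be told apart.

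The keratins of activated epidermis did not keep a fixed proportion to the suprabasal pair. Krt16 stood at 24.2, 1.36 and 40.2 CPM in control, at 24.4, 0.375 and 7.85 CPM with DSF, at 68.0, 0.544 and 39.0 CPM with anti-PD-1 and at 89.7, 91.2 and 222 CPM with the combination. Control, DSF and anti-PD-1 each had 1 library near the bottom of the scale, and in all 3 arms it was replicate 2. Krt10 was present in those libraries at 73.6, 31.8 and 24.7 CPM, so that the FPKM of Krt16 ran from 0.0166 times that of Krt10 in DSF replicate 2 to 4.45 times in DSF replicate 3.

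Krt6b, a type II chain induced in the same settings, stood at 34.8, 0.805 and 64.1 CPM in control, at 31.7, 0.250 and 14.2 CPM with DSF, at 101, 0.363 and 48.4 CPM with anti-PD-1 and at 96.7, 95.8 and 296 CPM with the combination. Krt6a stood at 35.1, 5.82 and 73.7 CPM in control, at 46.3, 2.93 and 10.04 CPM with DSF, at 111, 1.27 and 62.3 CPM with anti-PD-1 and at 125, 189 and 306 CPM with the combination. Both genes were lowest in the same 3 libraries as Krt16. Krt6a and Krt6b had fractional counts in 11 libraries, a sign that reads were shared with similar genes, and the split between them is uncertain. Krt6b had the largest SD of log2 CPM among the 21 tested keratins, at 3.27.

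**Figure D3:**
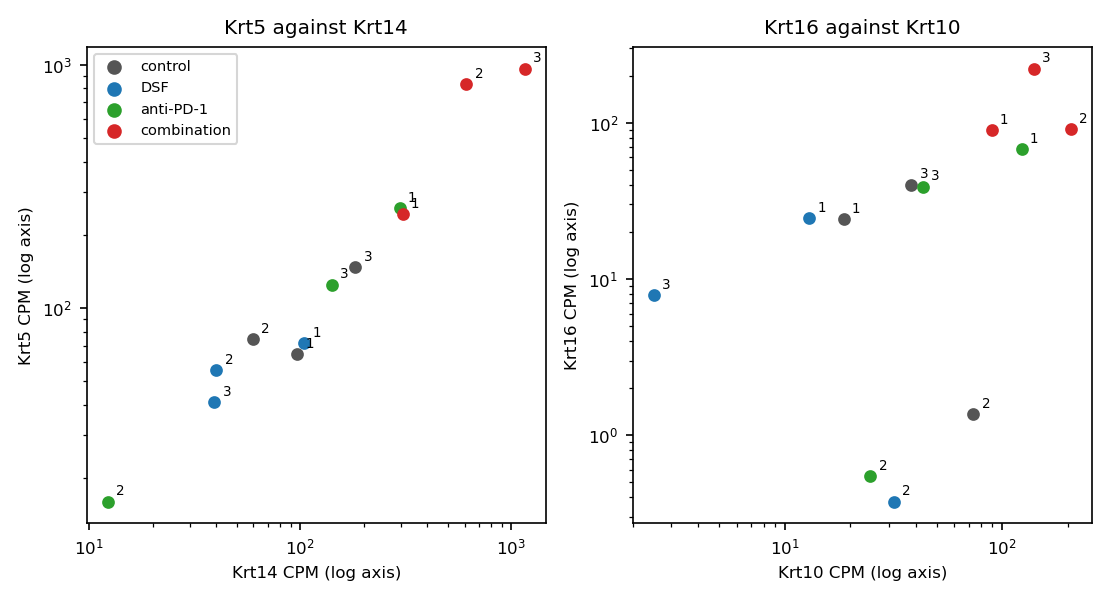
CPM of Krt5 against Krt14 (left) and of Krt16 against Krt10 (right) in the 12 libraries, both axes logarithmic, coloured by arm and numbered by replicate. Krt5 and Krt14 fall along a line, while replicate 2 of control, DSF and anti-PD-1 lies low in the right panel, with Krt16 at 1.36, 0.375 and 0.544 CPM.

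Krt17, a chain of follicle and activated epidermis, stood at 15.2, 14.6 and 52.4 CPM in control, at 19.9, 7.74 and 10.5 CPM with DSF, at 94.3, 5.26 and 49.6 CPM with anti-PD-1 and at 75.4, 591 and 148 CPM with the combination. Its highest library was combination replicate 2, which held 49.6% of all its counts. Krt79, a chain described in the upper follicle and sebaceous duct of mouse skin, stood at 5.73, 17.5 and 21.9 CPM in control, at 4.13, 7.49 and 2.79 CPM with DSF, at 48.0, 5.44 and 22.5 CPM with anti-PD-1 and at 33.4, 99.1 and 53.4 CPM with the combination. All 3 combination libraries were above control and DSF for both genes. Krt15, a basal chain also used to mark follicle bulge cells, ran from 4.63 to 128 CPM, and Krt77 from 0.220 to 80.2 CPM. Krt80 was steadier, at 18.0 to 40.8 CPM outside combination replicate 2 and 92.7 CPM in it. Krt2, a late suprabasal chain, did not pass 1.24 CPM and Krt78 did not pass 5.54 CPM. Krt4, Krt9, Krt12 and Krt24, which belong to mucosa, palm and sole, cornea and other epithelia, were not tested and stayed under 0.24 CPM.

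The follicle keratins were found almost wholly in combination replicate 2. Of the 23 genes of the inner root sheath, companion layer and hair shaft, 22 had at least 97.1% of their counts in that library, and none of these 22 had more than 13 counts in any other. Krt26 and Krt40 were at 0 in the other 11 libraries. Inner root sheath and companion layer keratins took 0.403% of the counts of combination replicate 2 (95% Wilson interval 0.399 to 0.406%) against at most 0.000458% in any other library. Hair shaft keratins took 0.161% (0.159 to 0.163%) against at most 9.54e-05%. These intervals cover counting error only.

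Krt71, a type II inner root sheath chain, reached 1374 CPM in combination replicate 2 and at most 0.759 CPM elsewhere. Krt25, a type I chain of the same layers, reached 1124 CPM against 0.759 CPM, Krt27 reached 506 CPM against 0.526 CPM and Krt28 reached 219 CPM against 0.181 CPM. By FPKM in that library Krt71 was 0.900 times Krt25. Among shaft keratins, Krt83 reached 263 CPM against at most 0.409 CPM elsewhere, Krt33a 212 CPM against 0.175 CPM, Krt31 167 CPM against 0.0584 CPM and Krt34 149 CPM against 0.0596 CPM. Krt39, the lowest of the 15, reached 2.41 CPM. Fractional counts in this library mark Krt25, Krt27 and 9 shaft keratins as sharing reads, so their split is uncertain.

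Krt75, the companion layer chain, was the only follicle keratin with enough counts outside combination replicate 2 to pass the filter. It stood at 0.0609, 0.495 and 0.353 CPM in control, at 0.323, 0.749 and 0.220 CPM with DSF, at 1.25, 0.181 and 0.963 CPM with anti-PD-1 and at 0.759, 194 and 4.47 CPM with the combination. Combination replicate 2 held 94.2% of its counts.

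Other follicle transcripts stood out in the same library, and their part in the keratin values was not tested. Tchh, which encodes trichohyalin of the inner root sheath, was at 1575 CPM there and at most 1.37 CPM elsewhere. The 53 keratin-associated protein genes in the table together took 0.245% of the counts of that library and at most 0.000131% of those of any other. All 53 were detected there and at most 11 in any other library. Those with counts only there may be in the table through that library alone, so their full detection adds little. Dlx3, Foxn1, Hoxc13 and Msx2, transcription factors of the follicle, were at 89.6, 24.9, 35.1 and 27.1 CPM there and at most 1.15, 2.2, 0.655 and 0.417 CPM elsewhere. The whole list of follicle genes other than keratins, which holds Tchh and these factors, summed to 2158 CPM there and to 13.6 to 42.2 CPM elsewhere. Members not named here therefore had counts in the other libraries as well. The mean of the hair shaft keratins and Krt14 had a Pearson's r of 0.403 (permutation p = 0.178, adjusted p = 0.203, n = 12), a Spearman's rho of 0.308 (permutation p = 0.326, adjusted p = 0.435), and an r of 0.255 without combination replicates 1 and 2.

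The inner root sheath and companion layer keratins are shown by their promoters because they were high together in 1 library. RefSeq windows on build GRCm38.p6 were matched to 34 of the 51 keratins by gene identifier, and the 100 bases before the annotated start were searched on both strands for TATAAA, the core of the TATA box, and GGGCGG, a GC box. Capitals mark a match on either strand, and each sequence is the strand of the gene, 5′ to 3′.
Krt25, chr11:99322952-99323051, minus strand: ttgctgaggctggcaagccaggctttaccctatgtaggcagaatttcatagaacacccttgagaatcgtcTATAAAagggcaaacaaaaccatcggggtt
Krt26, chr11:99337966-99338065, minus strand: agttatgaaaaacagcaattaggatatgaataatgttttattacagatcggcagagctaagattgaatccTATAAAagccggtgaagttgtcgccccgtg
Krt27, chr11:99351119-99351218, minus strand: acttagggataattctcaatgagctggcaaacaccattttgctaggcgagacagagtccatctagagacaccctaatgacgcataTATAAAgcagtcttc
Krt28, chr11:99374904-99375003, minus strand: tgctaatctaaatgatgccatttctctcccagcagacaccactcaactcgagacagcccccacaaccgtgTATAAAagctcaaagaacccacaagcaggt
Krt71, chr15:101743098-101743197, minus strand: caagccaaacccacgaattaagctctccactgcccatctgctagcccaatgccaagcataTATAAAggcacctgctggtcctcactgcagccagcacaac
Krt72, chr15:101786521-101786620, minus strand: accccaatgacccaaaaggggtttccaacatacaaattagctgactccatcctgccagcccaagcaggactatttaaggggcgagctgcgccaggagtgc
Krt73, chr15:101802361-101802460, minus strand: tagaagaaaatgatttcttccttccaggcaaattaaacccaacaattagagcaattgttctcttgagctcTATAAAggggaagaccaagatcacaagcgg
Krt75, chr15:101573905-101574004, minus strand: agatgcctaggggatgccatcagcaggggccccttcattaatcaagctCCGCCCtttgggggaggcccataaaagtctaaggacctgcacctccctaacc

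Promoters of keratins that were present in all libraries, as Krt75 also was at low counts, are set beside them.
Krt18, chr15:102028116-102028215, plus strand: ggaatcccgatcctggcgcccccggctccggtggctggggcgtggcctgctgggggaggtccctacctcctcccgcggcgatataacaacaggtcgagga
Krt5, chr15:101712906-101713005, minus strand: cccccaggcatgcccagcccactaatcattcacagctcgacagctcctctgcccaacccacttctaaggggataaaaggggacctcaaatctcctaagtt
Krt10, chr11:99389365-99389464, minus strand: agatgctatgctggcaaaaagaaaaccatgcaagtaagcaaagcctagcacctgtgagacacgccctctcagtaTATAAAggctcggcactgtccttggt

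TATAAA was found in 6 of the 8 inner root sheath and companion layer promoters and in 5 of 9 hair shaft promoters. It was in 1 of 3 epidermal promoters, which is that of Krt10, and in 0 of 3 simple keratin promoters. Of the other stratified keratins 1 of 7 had it, and of the unclassified 1 of 4. It was in 41.2% of the 34 keratin promoters and in 5.56% of the 32851 promoters in the table. GGGCGG was in 5.88% of keratin promoters and in 24.7% of all. A match describes these letters in this window and is no evidence of binding, and some keratins are neighbours on a chromosome and share ancestry. In the RefSeq gene order, Krt25, Krt26, Krt27 and Krt28 follow each other on chromosome 11 directly before Krt10, while Krt71, Krt72 and Krt73 lie on chromosome 15 between Krt5 and Krt2. Krt10 and Krt5 were detected in all 12 libraries, unlike these inner root sheath genes.

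The classes made up different shares of the summed keratin FPKM. Simple keratins gave 66.1 to 80.9% of it in control and 82.7 to 90.7% with DSF. They gave 50.2, 93.1 and 65.3% in anti-PD-1 replicates 1 to 3, and 53.6, 9.74 and 28.0% in combination replicates 1 to 3. The anti-PD-1 arm spanned the widest range of the 3 other arms, and its replicate 1 lay below combination replicate 1. Epidermal keratins gave 48.5% in combination replicate 3. Inner root sheath and companion layer keratins gave 40.3% in combination replicate 2. As a share of counts, all keratins together ranged from 0.133% in anti-PD-1 replicate 2 to 0.976% in combination replicate 2, with 0.493% in combination replicate 3, while the simple keratins stayed between 0.0805 and 0.131%.

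**Figure D4:**
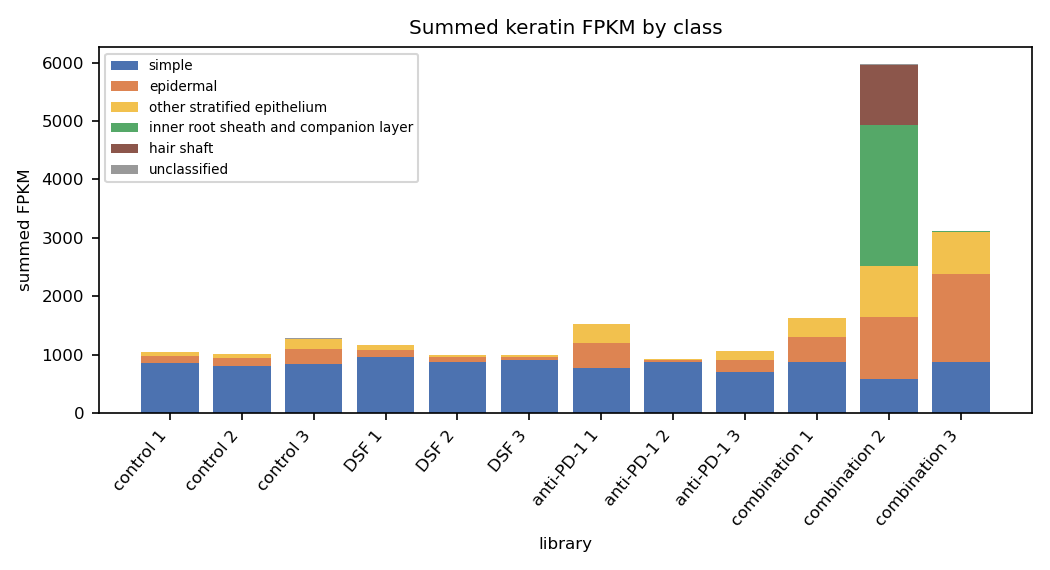
Summed FPKM of the keratins in each library, stacked by class. The simple keratins form a layer of similar height in every bar, and the tall bars of combination replicates 2 and 3 are made of epidermal, other stratified and, in replicate 2, follicle keratins, with simple keratins at 9.74 and 28.0% of the sum.

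The unclassified keratins were low. Krt23 stood at 0.975, 2.04 and 1.12 CPM in control, at 0.129, 0.687 and 0 CPM with DSF, at 3.14, 0.968 and 1.68 CPM with anti-PD-1 and at 2.45, 18.7 and 2.86 CPM with the combination. Krt20, a chain of intestinal epithelium and Merkel cells, stood at 0.853, 0.867 and 0.941 CPM in control, at 1.03, 2.06 and 1.39 CPM with DSF, at 0.830, 0.544 and 0.602 CPM with anti-PD-1 and at 0.818, 0.656 and 0.834 CPM with the combination. All 3 DSF libraries lay above all others for Krt20. Krt222 did not pass 0.500 CPM in any library, Krt90 reached 1.82 CPM in combination replicate 2 and at most 0.0605 CPM elsewhere, and Krt42 and Krt88 stayed under 0.30 CPM.

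The combination was compared with DSF alone, which asks what anti-PD-1 adds to DSF. Of the 21 tested keratins, 2 rose and none fell at an adjusted p under 0.05 in edgeR's quasi-likelihood test with Benjamini-Hochberg adjustment over 14144 genes, while 1.86% of all tested genes were called, 1.6% higher and 0.255% lower. Krt1 rose from 8.80 ± 5.94 CPM (SD, n = 3) with DSF to 162 ± 71.8 CPM (SD, n = 3) with the combination, a log2 fold change of 4.19 ± 0.78 (SE, edgeR adjusted p = 0.0409). Krt79 rose from 4.80 ± 2.42 to 62.0 ± 33.7 CPM (SD, n = 3 each), a log2 fold change of 3.68 ± 0.79 (SE, edgeR adjusted p = 0.0434). For both genes the 3 combination libraries lay above the 3 DSF libraries.

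The other stratified and epidermal keratins had positive log2 fold changes but missed the threshold. Krt5 had 3.60 ± 0.83 (SE, edgeR adjusted p = 0.052), Krt14 3.50 ± 0.94 (adjusted p = 0.0731), Krt10 3.20 ± 0.85 (adjusted p = 0.0711) and Krt17 4.41 ± 1.07 (adjusted p = 0.0585). Krt23 had 4.79 ± 1.10 (edgeR adjusted p = 0.052) and Krt75 7.21 ± 1.81 (adjusted p = 0.0648), and each has its highest value in combination replicate 2. Without that library the log2 fold change was 2.57 for Krt75, 3.22 for Krt23 and 3.13 for Krt17. That of Krt14 was 2.89 without combination replicate 3 and 4.13 without DSF replicate 1. Without DSF replicate 2, Krt10 had 4.20, Krt23 6.71 and Krt75 7.87. The median log2 fold change was 3.55 over the 4 epidermal keratins and 3.34 over the 10 tested keratins of other stratified epithelia, against -0.02 over all genes tested. In 15 of the 21 tested keratins all combination libraries lay above all DSF libraries, against 12.3% of all genes tested, and in 3 they lay below, against 10.8%. At an unadjusted p under 0.05 there were 14 higher and 3 lower keratins, against 10.5% and 8.4% of all genes tested, or 18.9% in either direction. Keratins such as Krt5 and Krt14 varied together across the same few libraries. Counts of keratins, here and in the comparisons below, are therefore not counts of separate observations.

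The simple keratins lay on the other side of 0, with a median of -1.28 over the 4, although Krt8 was at 0.0411 and Krt18 at -0.18 without combination replicate 2. Krt19 had a log2 fold change of -2.62 ± 0.66 (SE, edgeR adjusted p = 0.0646), Krt7 of -2.22 ± 1.17 (adjusted p = 0.337), Krt18 of -0.34 ± 0.14 (adjusted p = 0.218) and Krt8 of -0.16 ± 0.19 (adjusted p = 0.688). Without DSF replicate 3 the Krt7 value was -0.63, and without DSF replicate 2 the Krt19 value was -1.73. The approximate 95% interval of the Krt8 difference ran from -0.53 to 0.21. Krt18, Krt19 and Krt20 were the 3 keratins whose combination libraries all lay below DSF.

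Genes of the cornified envelope, of filament anchorage and of keratinocyte gene control were examined in the same comparison. Of the 21 cornified envelope and keratinocyte genes, 15 rose, none fell and the median log2 fold change was 4.18, beside 1.6% of all tested genes higher, 0.255% lower and a median of -0.02. The same shares stand beside the lists that follow. They include Flg, which encodes filaggrin (5.16 ± 0.77 SE, edgeR adjusted p = 0.0387), and Ivl, which encodes involucrin (4.80 ± 0.93, adjusted p = 0.0409). Of 18 genes in a list of desmosome, hemidesmosome and plakin genes, 6 rose, namely Dsp, Pkp1, Dsc3, Perp, Eppk1 and Col17a1. Dsp, the desmosomal plakin that binds keratin, had a log2 fold change of 3.77 ± 0.79 (SE, edgeR adjusted p = 0.0433). Plec, Dst, Itga6 and Itgb4, the most abundant members of that list, had log2 fold changes of 0.19, -0.36, -0.01 and 0.02 and did not pass.

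Trp63, the p63 transcription factor of basal keratinocytes, rose by a log2 fold change of 3.37 ± 0.72 (SE, edgeR adjusted p = 0.0433). It was one of 5 that rose among 11 tested keratinocyte transcription factors, with Grhl3, Ovol1, Casz1 and Zfp750. Of 15 tested carcinoma epithelium genes 4 rose, with a median of 1.90, and of 6 tested follicle genes other than keratins 1 rose (Foxn1). None of the 9 tested genes of other intermediate filaments passed, and Vim had -0.16 ± 0.17 (SE, edgeR adjusted p = 0.665). None of the tested adipocyte, skeletal muscle, mammary, sebaceous, haematopoietic or fibroblast genes, numbering 9, 10, 3, 6, 5 and 6, passed in edgeR, and 1, 0, 1, 4, 2 and 0 of them had an unadjusted p under 0.05, beside 18.9% of all tested genes. The 4 sebaceous and 2 haematopoietic genes were higher with the combination, and the adipocyte and mammary genes lower.

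The Krt1 and Krt79 calls lay near the threshold and were lost when some single libraries were left out and in some other settings. Over all settings with 1 library left out, the log2 fold change ran from 3.78 to 4.81 for Krt1 and from 3.17 to 4.14 for Krt79. No keratin was called when any 1 of 8 libraries was left out, namely combination replicate 2 or 3, DSF replicate 1 or 3, anti-PD-1 replicate 3 or a control library. None was called without combination replicate 2 and DSF replicate 2 together, where Krt1 had a log2 fold change of 4.60 and Krt79 of 3.64 (edgeR adjusted p = 0.113 for each). Leaving out DSF replicate 2 or combination replicate 1 gave 7 called keratins, with 4.2% and 2.32% of all genes called. Leaving out anti-PD-1 replicate 1 gave 4, with 3.24% of all genes, and leaving out anti-PD-1 replicate 2 gave 5, with 3.15%. Fitting only the combination and DSF arms gave 0 called keratins and 0 genes (edgeR adjusted p = 0.0581 for Krt1 and 0.0556 for Krt79). With replicate number as a block, 0 keratins and 7 genes were called (edgeR adjusted p = 0.0652 for Krt1 and 0.0749 for Krt79). DESeq2 called 12 keratins, 11 of them higher and Krt19 lower, with 7.94% of all genes called. The count over all genes moved likewise, from 263 to 0 without control replicate 2, DSF replicate 3, anti-PD-1 replicate 3 or combination replicate 2 or 3, and also without combination replicate 2 and DSF replicate 2 together. No gene of the cornified envelope, anchorage or transcription factor lists was then called. Without DSF replicate 2 the Krt1 value was 4.81, and without DSF replicate 1 Flg had 6.08 and Ivl 6.38. Without combination replicate 2 Ivl had 3.72, Dsp 2.94 and Trp63 2.75.

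**Figure D5:**
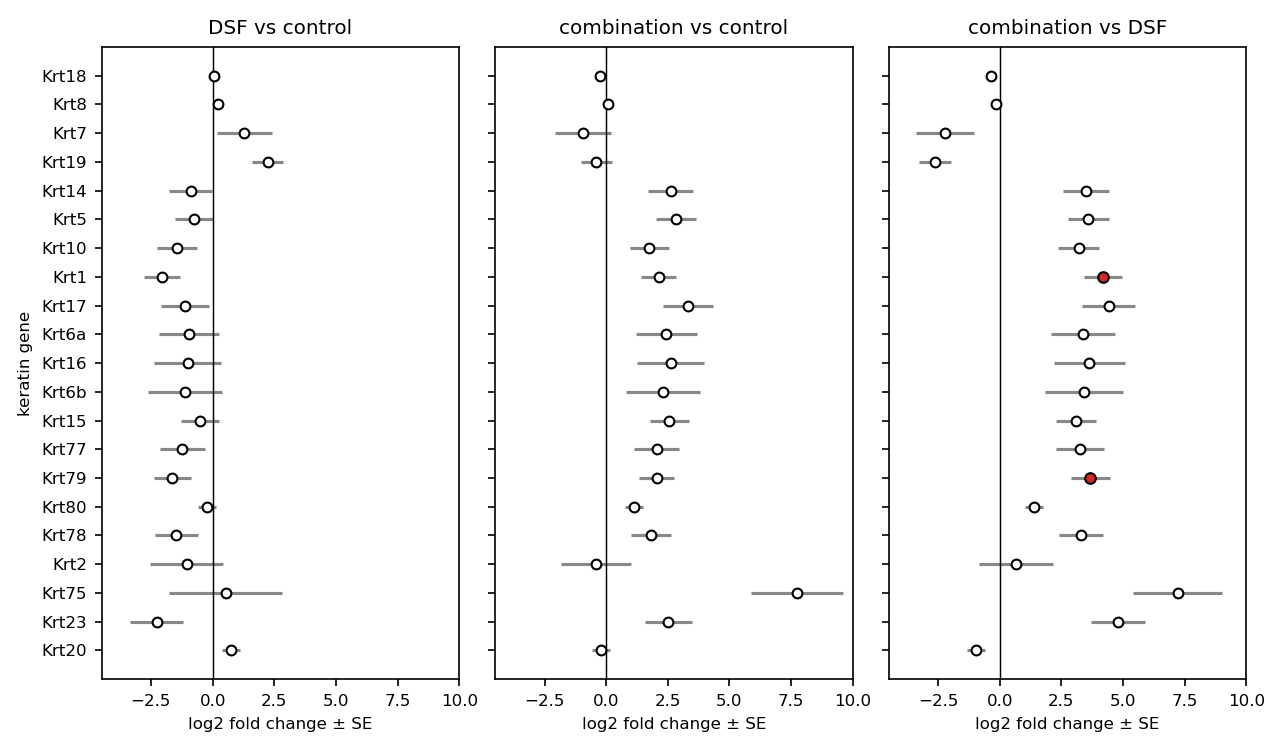
Log2 fold change ± SE of the 21 tested keratins for DSF against control, the combination against control and the combination against DSF. Filled red points passed an edgeR adjusted p of 0.05, which are Krt1 and Krt79 in the right panel. Epidermal and other stratified keratins lie left of 0 in the first panel and, apart from Krt2, right of 0 in the second. Comparisons that share an arm share its libraries.

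DSF alone was compared with control, and no keratin passed (edgeR, with 0% of all tested genes called). Krt1 had a log2 fold change of -2.06 ± 0.73 (SE, edgeR adjusted p = 0.376), and Krt19 of 2.23 ± 0.65 (adjusted p = 0.286). All 14 tested epidermal and other stratified keratins had negative log2 fold changes and all 4 simple keratins positive ones, except that Krt7 was at -0.31 without DSF replicate 3. The median was -0.95 over the 21 against 0.03 over all genes tested. The DSF libraries lay above all control libraries in 2 keratins, Krt19 and Krt20, against 5.07% of all genes, and below them in 2, Krt1 and Krt23, against 6.41%. At an unadjusted p under 0.05 there was 1 higher and 1 lower keratin, against 5.47% and 5.15% of all genes tested. DESeq2 called Krt19 (adjusted p = 0.0349), with 1.59% of all genes. Without DSF replicate 2 the Krt19 value was 1.33 (edgeR adjusted p = 0.364).

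Anti-PD-1 alone was compared with control, where again no keratin passed (edgeR, with 0% of all tested genes called), DESeq2 called none, and none had an unadjusted p under 0.05 against 1.73% of all genes. The epidermal keratins had log2 fold changes of 0.41 to 0.55, which turned negative without anti-PD-1 replicate 1, to -0.45 for Krt1, -0.44 for Krt5, -0.36 for Krt10 and -0.55 for Krt14, and which limma also gave as negative for Krt5 and Krt14. Krt8 had -0.01 ± 0.19 (SE, edgeR adjusted p = 0.999). The anti-PD-1 libraries lay below all control libraries in 1 keratin, Krt20, against 2.82% of all genes. The interval for Krt14 was wide, from -1.27 to 2.09 on the log2 scale, as the 3 anti-PD-1 libraries span its lowest value and one of its higher ones.

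The combination was compared with control, and no keratin passed (edgeR, with 0% of all tested genes called). Of the 21 tested, 11 had a higher level at an unadjusted p under 0.05, against 6.84% of all genes tested, and 0 a lower one, against 4.4%. In 15 the combination libraries lay above all control libraries, against 11.5% of all genes, and in 2, Krt18 and Krt20, below, against 7.8%. Krt5 had a log2 fold change of 2.83 ± 0.80 (SE, edgeR adjusted p = 0.256) and was the 1 keratin called by DESeq2, with 1.72% of all genes. Krt8 had 0.07 ± 0.19 (SE, edgeR adjusted p = 0.927), with an approximate 95% interval from -0.30 to 0.44. The combination was likewise compared with anti-PD-1 alone, and no keratin passed (edgeR, with 0% of all tested genes called). At an unadjusted p under 0.05 there were 7 higher keratins, against 6.27% of all genes, and 0 lower, against 3.99%, or 10.3% in either direction.

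Whether the 2 agents together differed from the sum of each alone was asked by the interaction. No keratin passed (edgeR, with 0% of all tested genes called), while DESeq2 called Krt1, with 1.64% of all genes. Krt1 had an interaction of 3.75 on the log2 scale ± 1.00 (SE, edgeR adjusted p = 0.269) and Krt19 of -2.79 ± 0.90 (adjusted p = 0.29). At an unadjusted p under 0.05 there were 10 positive and 1 negative keratins, against 7.05% and 5.35% of all genes tested. Over both backgrounds, no keratin passed for the main effect of anti-PD-1 (edgeR, with 0% of all tested genes called), where Krt1 had 2.32 ± 0.51 and Krt79 2.22 ± 0.52 (SE, edgeR adjusted p = 0.16 for each), 14 keratins were higher and 3 lower at an unadjusted p under 0.05, against 6.52% and 3.54% of all genes, and DESeq2 called 5 keratins, with 2.26% of all genes. For the main effect of DSF no keratin passed (edgeR, with 0% of all tested genes called), and 1 was higher and 0 lower at an unadjusted p under 0.05, against 4.45% and 3.7%, or 8.15% in either direction.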

How the data were processed

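The authors deposited, for 12 libraries, an expected count and an FPKM value per gene. The submitters' processing notes name RSEM 1.2.12, DESeq2 1.4.5, Bowtie2 2.2.5 and HISAT2 2.0.4, without the step of each. The genome build is not given in the sources used here. Columns were matched to titles by the deposited group plan and number, and a control column whose name ends in 11 was read as control 1. The deposited TPM and group average columns (12 of each) and the transcript table were not used.

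Expected counts were rounded (9.02% were not whole). Genes were filtered with filterByExpr, scaled by TMM, and fitted with edgeR 4.0.16 in R 4.3.3, with 1 mean per arm and 12 libraries in 1 fit, which was also tested on simulated data. Tests were two-sided and adjusted by Benjamini-Hochberg over 14144 genes, with a threshold of 0.05. For a main effect, the average of the arms given an agent was set against the average of those not given it. DESeq2 1.42.0, limma 3.58.1 on log2(FPKM + 0.1) or log2(FPKM + 1) and other settings were alternatives. Correlations used log2 CPM with a prior count of 2. The keratins, the gene lists and the classes were chosen with earlier results of these data known. Values in every library are given for the simple and epidermal keratins, those called, and up to 4 of the highest mean FPKM in each other class, with hair keratins and the lowest genes by their range.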

Additional observations from a re-analysis of the deposited data

How the results depend on the processing

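The keratin calls depended on the settings. Fold changes of 8 keratins were planned under every alternative in each comparison, and further named genes were added after seeing the data. Of 1653 alternative values for 84 single-gene results, 1494 kept their sign and side of the threshold, 64 lost and 26 gained a call, and 69 changed sign, 47 of them with 1 library left out. None of the 69 belonged to a called value, and the cause was not tested. Of the share values, 32 of 72 moved beyond their counting interval when taken from FPKM. The 22 untested follicle keratins have almost all their counts in 1 library, and the 8 other untested keratins have few reads in any.

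DESeq2 called 1 keratin and 220 genes for DSF against control, 1 and 256 for the combination against control, 12 and 1181 for the combination against DSF, 1 and 232 for the interaction, and 5 and 328 for the main effect of anti-PD-1. It called 70 genes for the combination against anti-PD-1 and 78 for the main effect of DSF. For the combination against DSF, limma called 6 keratins and 453 genes with a pseudocount of 0.1 and 5 keratins with 1. Fitting only both groups compared gave 0 keratins and 0 genes (adjusted p of 0.0581 for Krt1 and 0.0556 for Krt79), and leaving out combination 2 and DSF 2 together, chosen after seeing the data, gave 0 and 0. Only both groups compared gave 4 genes for the combination against anti-PD-1.

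Replicate numbers were not taken to pair the libraries, since not every pair correlated: of 18 same-number pairs 10 had a correlation of deviations over 0.1 (range -0.365 to 0.462), and 7 of 12 libraries correlated best with their own number, a hint from the data and not the design. With the replicate block the combination against DSF had 0 keratins and 7 genes called, with adjusted p of 0.0652 for Krt1 and 0.0749 for Krt79.

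Leaving out 1 library at a time gave 0 to 7 keratins and 0 to 601 genes for the combination against DSF. For genes it gave 0 to 35 in DSF against control, 0 to 3 in the combination against anti-PD-1, 0 to 19 in the interaction, 0 to 3 in the main effect of DSF and 0 to 16 in that of anti-PD-1.

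Signs of these log2 fold changes turned in other settings. For anti-PD-1 against control, Krt7 was -0.17 with the replicate block and -0.60 and -0.35 in limma with pseudocounts of 0.1 and 1, Krt19 was -0.0937 with the block, and limma gave -0.16 and -0.13 for Krt5 and -0.36 and -0.32 for Krt14. For the main effect of DSF, Krt7 was 0.0328 with the block and 0.22 and 0.14 in limma, Krt79 was 0.045 and 0.12 in limma, and Krt1 was 0.0111 with a pseudocount of 1. With combination 2 and DSF 2 left out, Krt8 was 0.0503 against DSF, 0.062 in the interaction and 0.0193 in the main effect of anti-PD-1, Krt18 was 0.0517 against anti-PD-1 and 0.0866 in the main effect of DSF, and Itga6 was 0.059 against DSF. Itga6 was 0.0456 and 0.0449 in limma.

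With 1 library left out, DSF against control gave Krt7 from -0.31 to 1.89. Anti-PD-1 against control gave Krt7 from -1.74 to 1.05, Krt8 from -0.0888 to 0.12, Krt19 from -0.24 to 0.72, Krt1 from -0.45 to 0.91, Krt5 from -0.44 to 1.01, Krt10 from -0.36 to 1.17, Krt14 from -0.55 to 0.96 and Krt79 from -0.11 to 1.24. The combination against control gave Krt8 from -0.0523 to 0.27 and Krt19 from -0.70 to 0.16. The combination against DSF gave Krt8 from -0.30 to 0.0411, Itga6 from -0.11 to 0.0896, Itgb4 from -0.15 to 0.24 and Vim from -0.30 to 0.000623. The combination against anti-PD-1 gave Krt7 from -1.96 to 0.80, Krt8 from -0.0501 to 0.28 and Krt18 from -0.22 to 0.0515. The interaction gave Krt8 from -0.30 to 0.0527. The main effect of DSF gave Krt7 from -0.85 to 1.04, Krt18 from -0.0637 to 0.0617, Krt1 from -0.49 to 0.26, Krt10 from -0.63 to 0.32 and Krt79 from -0.43 to 0.25. The main effect of anti-PD-1 gave Krt8 from -0.15 to 0.0148.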
